A study of Mus musculus with 27 samples.

Results

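Hearts of mouse embryos labelled Tbx5+/- (5 arrays) were set against hearts labelled Brg1+/- (6 arrays), which makes 11 of the 27 arrays of the series. The members were taken by genotype label alone, and wild-type arrays did not enter the difference. Tbx5+/- hearts lack 1 copy of the transcription factor gene Tbx5, and Brg1+/- hearts lack 1 copy of Brg1, the ATPase gene named Smarca4 on the array. Both groups were taken at E11.5 from a background labelled C57Bl/6/BLKSW mix. The other 16 arrays of the series hold wild-type, Nkx2-5+/-, Tbx5+/-;Brg1+/- and Nkx2-5+/-;Brg1+/- hearts. The labels do not give the deleted part of each gene, the sex, or whether hearts were pooled. The p-values therefore measure the spread between arrays of a genotype, pooled over all 27 arrays. That spread may be partly technical.

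Tbx5 is a T-box factor that switches on genes of the atria, the left ventricle and the conduction system, and the heart is sensitive to its dose. Brg1 is the motor subunit of BAF, a complex that uses ATP to move nucleosomes and so changes which DNA such factors can reach. The comparison asks where losing a copy of the factor and losing a copy of the remodeller leave the embryonic heart with different gene expression. It does not say which of the genotypes departs from wild type.

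Values are RMA log2 signals, so a difference of 1 is a doubling of signal, and 19935 genes were tested. Array medians lay between 6.204 and 6.316, and the correlations of array pairs between 0.980 and 0.994. The mean of the heart muscle sarcomere list was 10.50 to 10.62 in Tbx5+/- arrays and 9.82 to 10.42 in Brg1+/- arrays, above every array median. Of the arrays, 3 Tbx5+/- and 3 Brg1+/- were female-like, with 2 Tbx5+/- and 3 Brg1+/- male-like. Brg1+/- replicate 2 stood apart, with the lowest sarcomere mean and the highest erythroid mean of the 11 arrays. Nkx2-5+/- replicate 3 and Tbx5+/-;Brg1+/- replicate 3, which help to set the spread but not the difference, had signals of targeted genes that went against their labels.

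Tbx5+/- hearts had higher signal than Brg1+/- hearts in 5 genes and lower signal in 0 genes at a limma adjusted p under 0.05, which is 0.0251% of the genes tested. The 5 were Ddc, Igfbp2, Tnni2, Smarca4 and Tbx5, and in each of them every Tbx5+/- array lay above every Brg1+/- array. An unadjusted p under 0.05 was found for 1868 higher genes (9.37%) and 938 lower genes (4.71%). Over all genes the median log2 fold change was 0.02 and 55.4% lay above 0. The groups did not overlap for 2.78% of genes with Tbx5+/- higher and for 0.557% with it lower. A fit on the 11 arrays alone called 30 genes (0.15%), 26 higher and 4 lower, and kept all 5. Without the pair of arrays at odds with their labels 121 genes were called. In whole hearts, fewer cells of a type and less RNA per cell cannot be told apart.

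**Figure D1:**
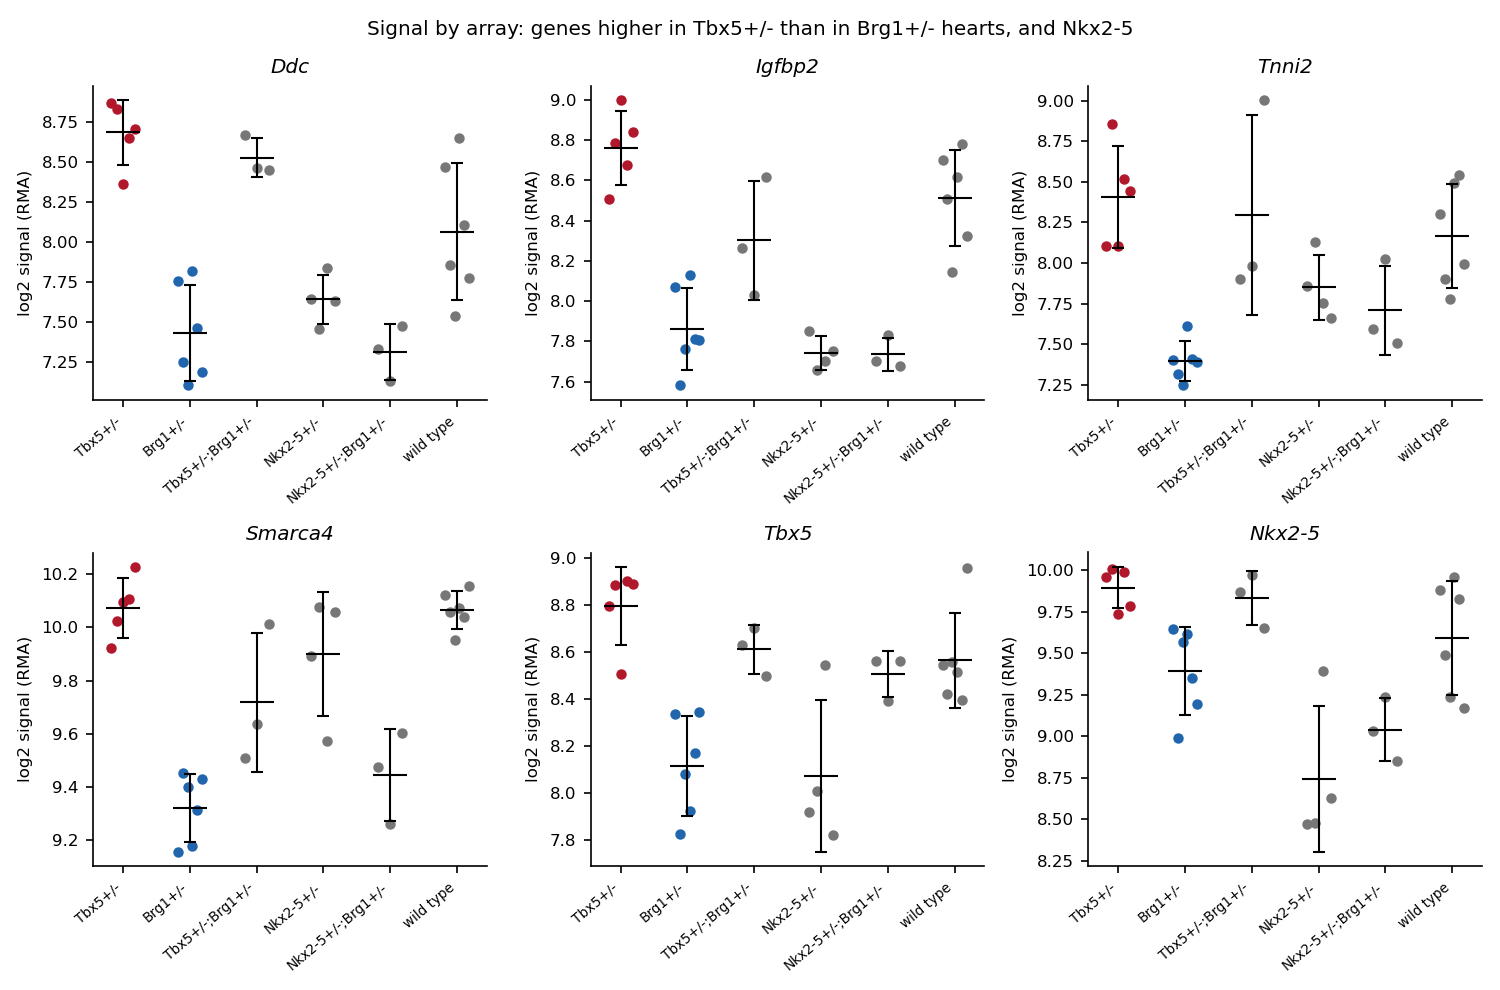
RMA log2 signal of each array (points) with mean and SD (bars) for the 5 genes higher in Tbx5+/- than in Brg1+/- hearts, and for Nkx2-5, in all 6 genotypes. In each panel the 5 Tbx5+/- points lie above the 6 Brg1+/- points; the other genotypes are shown for their level.

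Ddc, the decarboxylase that makes dopamine and serotonin, showed the largest difference of the 5. Its signal was 8.87, 8.83, 8.36, 8.65 and 8.71 in the Tbx5+/- arrays, against 7.11 at the lowest, 7.36 at the median and 7.82 at the highest in the Brg1+/- arrays. The gap between the groups was wider than the SD of either, which was 0.20 in Tbx5+/- and 0.30 in Brg1+/- hearts. The log2 fold change was 1.25 (SE 0.16, limma adjusted p = 2.1e-04, n = 5 and 6), or 2.38-fold with a 95% interval of 1.90 to 2.98. Wild-type hearts ran from 7.54 to 8.65 and overlapped with both genotypes. In the compound hearts Ddc averaged 8.53 in Tbx5+/-;Brg1+/- arrays and 7.31 in Nkx2-5+/-;Brg1+/- arrays. The Nkx2-5+/- arrays averaged 7.64, against 7.43 in the Brg1+/- arrays.

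Igfbp2 encodes a secreted protein that binds insulin-like growth factors. Its signal was 8.51, 8.79, 8.999, 8.68 and 8.84 in Tbx5+/- arrays, against 7.58 at the lowest, 7.81 at the median and 8.13 at the highest in Brg1+/- arrays. No Brg1+/- array reached the lowest Tbx5+/- array. The log2 fold change was 0.90 (SE 0.12, limma adjusted p = 2.1e-04), or 1.87-fold with a 95% interval of 1.58 to 2.21. The wild-type arrays ran from 8.15 to 8.78, above the Brg1+/- range. Igfbp2 averaged 7.86 in Brg1+/- arrays, 7.74 in Nkx2-5+/- arrays, 7.74 in Nkx2-5+/-;Brg1+/- arrays and 8.30 in Tbx5+/-;Brg1+/- arrays. Among the 14 measured genes of the Igf system, Igfbp2 alone passed, 9 lay above 0 and the list median was 0.08. The growth factor gene Igf2 stood at 0.10 (adjusted p = 0.676), the insulin receptor gene Insr at -0.29 (adjusted p = 0.213) and the binding protein gene Igfbp5 at 0.09 (adjusted p = 0.83). These 3 were chosen after their values were seen.

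The promoters of Ddc and Igfbp2 are shown because, of the called genes that neither genotype targets, these had the smallest p. Given are the 250 bases before annotated starts in RefSeq, build GRCm38.p6, 5′ to 3′, with capitals on the Nkx element core AAGTG on either strand. Ddc has 2 starts in the table, at chr11:11898145-11898394 and chr11:11890409-11890658, both on the minus strand. For Igfbp2 the upstream start of 2 is shown, at chr1:72824230-72824479 on the plus strand.
Ddc upstream start: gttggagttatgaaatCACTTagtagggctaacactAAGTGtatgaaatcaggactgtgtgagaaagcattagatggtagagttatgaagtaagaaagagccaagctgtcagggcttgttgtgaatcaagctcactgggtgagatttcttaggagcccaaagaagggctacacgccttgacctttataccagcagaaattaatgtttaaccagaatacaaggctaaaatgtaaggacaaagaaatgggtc
Ddc downstream start: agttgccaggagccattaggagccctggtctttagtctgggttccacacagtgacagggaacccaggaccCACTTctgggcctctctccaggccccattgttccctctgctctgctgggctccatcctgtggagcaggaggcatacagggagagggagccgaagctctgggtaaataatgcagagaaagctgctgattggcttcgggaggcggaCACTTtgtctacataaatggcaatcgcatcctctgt
Igfbp2: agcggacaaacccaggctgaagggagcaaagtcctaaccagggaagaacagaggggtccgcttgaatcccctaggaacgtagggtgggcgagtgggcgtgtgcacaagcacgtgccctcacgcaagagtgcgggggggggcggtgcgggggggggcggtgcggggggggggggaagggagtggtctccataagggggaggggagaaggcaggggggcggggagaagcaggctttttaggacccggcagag
The T-box core AGGTGT was in 0 of the 5 promoters matched to Ddc, Igfbp2 and Smarca4, on either strand, and 10.9% of 19175 promoters held it. The Nkx core occurred 2 times in each Ddc promoter and 0 times in the Igfbp2 promoter, and 39.2% of the promoters held it. A match describes the sequence and is not a binding site. Promoters of Tnni2 and Tbx5 were not used here.

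Tnni2, the troponin inhibitory subunit of fast skeletal muscle, was also higher in Tbx5+/- than in Brg1+/- hearts. Its signal was 8.10, 8.86, 8.11, 8.52 and 8.44 in Tbx5+/- arrays, against 7.25 at the lowest, 7.39 at the median and 7.61 at the highest in Brg1+/- arrays. The Tbx5+/- arrays were the more spread (SD 0.32, n = 5), and the Brg1+/- arrays lay close together (SD 0.12, n = 6). The log2 fold change was 1.01 (SE 0.17, limma adjusted p = 0.0137), or 2.02-fold with a 95% interval of 1.58 to 2.57. Wild-type Tnni2 ran from 7.78 to 8.54, above every Brg1+/- array. The call ended without Tbx5+/- replicate 2 (adjusted p = 0.0809) or 4 (adjusted p = 0.071), and once the mean of the erythroid genes was a covariate (adjusted p = 0.0862).

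Of the 17 measured members of the skeletal and pharyngeal muscle list, Tnni2 alone passed, 8 lay above 0 and the median was -0.02. The myogenic factor genes Myod1 and Myog had log2 fold changes of -0.10 (adjusted p = 0.824) and -0.13 (adjusted p = 0.813). The fast troponin T gene Tnnt3, near Tnni2 on the chromosome, stood at 0.31 (adjusted p = 0.436), and the fast fibre actinin gene Actn3 at 0.48 (adjusted p = 0.185). These 4 were chosen after their values were seen.

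Smarca4 checks the Brg1 labels. Its signal was 9.92, 10.02, 10.10, 10.11 and 10.23 in the Tbx5+/- arrays, against 9.16 at the lowest, 9.36 at the median and 9.45 at the highest in the Brg1+/- arrays. All 6 Brg1+/- arrays lay below all 5 Tbx5+/- arrays. The log2 fold change was 0.75 (SE 0.10, limma adjusted p = 2.1e-04), or 1.68-fold with a 95% interval of 1.46 to 1.94. Wild-type hearts stood at 9.95 to 10.16, inside the range of the Tbx5+/- hearts.

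Of 25 measured BAF subunit genes, Smarca4 alone passed, 17 lay above 0 and the median was 0.06. The alternative ATPase gene Smarca2 stood at 0.27 (adjusted p = 0.348), the core subunit gene Smarcb1 at 0.22 (adjusted p = 0.243), the muscle-enriched subunit gene Smarcd3 at 0.27 (adjusted p = 0.336) and the scaffold gene Smarcc1 at -0.11 (adjusted p = 0.649). These 4 were chosen after their values were seen. The list mean was 8.56 to 8.68 in Tbx5+/- arrays and 8.47 to 8.60 in Brg1+/- arrays, so the ranges overlapped.

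Tbx5 itself had the higher signal in the hearts labelled as lacking a copy of it. It was 8.80, 8.89, 8.51, 8.90 and 8.89 in Tbx5+/- arrays, against 7.83 at the lowest, 8.13 at the median and 8.35 at the highest in Brg1+/- arrays. The groups did not overlap, and Tbx5+/- replicate 3 lay apart from the rest of its group. The log2 fold change was 0.68 (SE 0.12, limma adjusted p = 0.0232), or 1.602-fold with a 95% interval of 1.35 to 1.90. Since the labels do not give the deleted part of Tbx5, the probe set may lie outside it and checks nothing about the Tbx5 labels. Wild-type hearts ran from 8.40 to 8.96, above every Brg1+/- array. Tbx5 averaged 8.12 in Brg1+/- arrays, 8.07 in Nkx2-5+/- arrays, 8.51 in Nkx2-5+/-;Brg1+/- arrays and 8.61 in Tbx5+/-;Brg1+/- arrays. The call ended without Tbx5+/- replicate 1 (adjusted p = 0.086), 2 (adjusted p = 0.0809), 4 (adjusted p = 0.114) or 5 (adjusted p = 0.0751). It also ended without Brg1+/- replicate 2 (adjusted p = 0.114) or 4 (adjusted p = 0.0897), and with the erythroid mean as a covariate (adjusted p = 0.179).

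Nkx2-5, the homeodomain partner of Tbx5, did not pass. Its signal was 9.96, 10.01, 9.74, 9.99 and 9.79 in Tbx5+/- hearts, against 8.99 at the lowest, 9.46 at the median and 9.64 at the highest in Brg1+/- hearts. These ranges did not overlap, and the log2 fold change was 0.50 (SE 0.16, limma adjusted p = 0.185). With the erythroid mean in the model it was 0.30.

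Among cardiac transcription factor genes, 0 of 32 measured members passed, 26 lay above 0 and the median was 0.23. At an unadjusted p under 0.05 there were 14 higher and 1 lower, and 6 members did not overlap between the groups, all of them higher in Tbx5+/- hearts. Over all genes 9.37% were higher and 4.71% lower at that p, and 2.78% did not overlap with Tbx5+/- higher. The list mean was 8.23 to 8.35 in Tbx5+/- arrays and 7.94 to 8.18 in Brg1+/- arrays, so these means did not overlap. Myocd, a partner of Srf in muscle gene activation, was 8.45 to 8.63 in Tbx5+/- arrays and 7.89 to 8.15 in Brg1+/- arrays (log2 fold change 0.51, adjusted p = 0.182), and the fit on the 11 arrays alone called it (adjusted p = 0.0175). Mef2d, a MADS-box activator of muscle genes, was 8.95 to 9.08 in Tbx5+/- arrays and 8.57 to 8.80 in Brg1+/- arrays (log2 fold change 0.30, adjusted p = 0.159). Zfpm2, the Gata4 cofactor also called Fog2, was 7.70 to 7.77 in Tbx5+/- arrays and 7.27 to 7.58 in Brg1+/- arrays (log2 fold change 0.33, adjusted p = 0.18). Hey2, a repressor downstream of Notch, was 8.56 to 9.07 in Tbx5+/- arrays and 7.80 to 8.53 in Brg1+/- arrays (log2 fold change 0.56, adjusted p = 0.185). With the erythroid mean as a covariate the list median was 0.09. The log2 fold changes were then 0.31 for Myocd, 0.21 for Mef2d, 0.21 for Zfpm2 and 0.37 for Hey2.

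**Figure D2:**
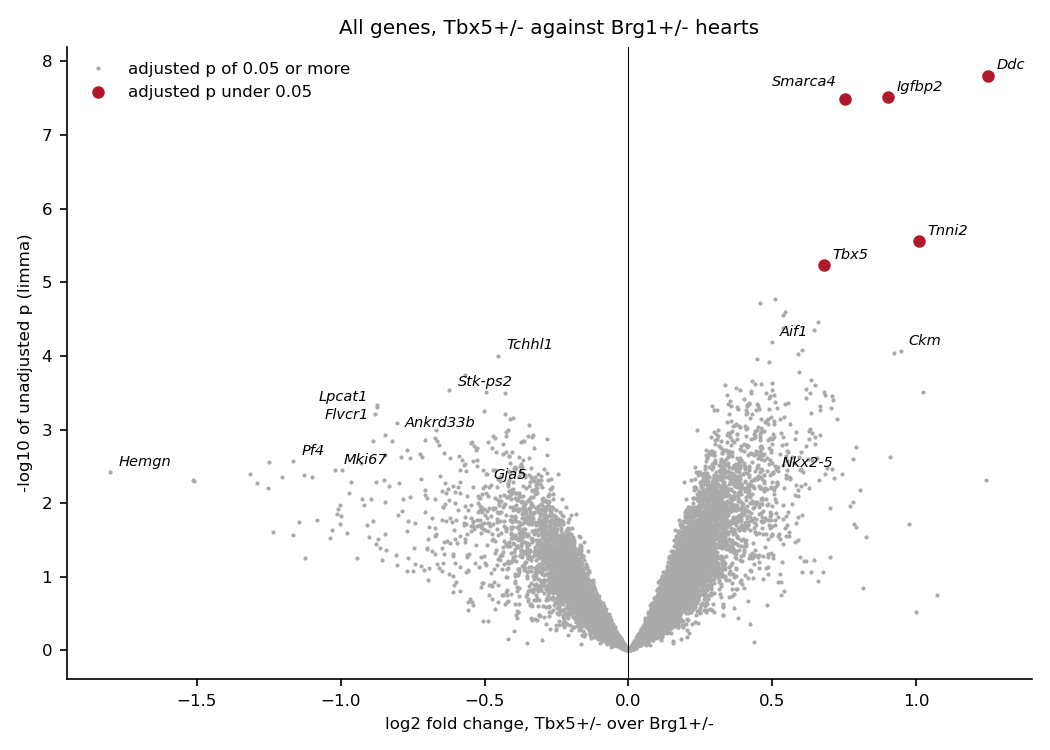
Log2 fold change of Tbx5+/- over Brg1+/- hearts (x axis) against -log10 of the unadjusted limma p (y axis) for 19935 genes. The 5 genes with an adjusted p under 0.05 (large points) all lie right of 0, from 0.68 for Tbx5 to 1.25 for Ddc, and the labelled genes left of 0 reach -1.80 for Hemgn without passing.

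Contractile genes had mostly positive log2 fold changes. In the sarcomere and Z-disc list, 0 of 32 measured members passed, 30 lay above 0 and the median was 0.35. At an unadjusted p under 0.05 there were 20 higher and 0 lower, and 9 members did not overlap between the groups, all higher in Tbx5+/- hearts. The shares over all genes were 9.37% higher, 4.71% lower, and 2.78% without overlap and higher. Acta1, the skeletal actin also made by embryonic heart, was 11.504, 11.63, 11.44, 11.58 and 11.43 in Tbx5+/- arrays, against 10.02 at the lowest, 10.95 at the median and 11.19 at the highest in Brg1+/- arrays (log2 fold change 0.69, SE 0.21, adjusted p = 0.182). Its lowest value was in Brg1+/- replicate 2. Trim63, a muscle ubiquitin ligase, was 8.42 to 8.90 in Tbx5+/- arrays and 7.47 to 8.41 in Brg1+/- arrays (log2 fold change 0.62, adjusted p = 0.167). Myl3, the ventricular light chain, was 12.22 to 12.49 in Tbx5+/- arrays and 11.03 to 12.17 in Brg1+/- arrays (log2 fold change 0.59, adjusted p = 0.195). Ttn, the giant spring protein of the sarcomere, was the lowest member at -0.20 (adjusted p = 0.826), chosen after its value was seen. Without Brg1+/- replicate 2 the list median was 0.26. With the erythroid mean as a covariate it was 0.17, with Acta1 at 0.49, Trim63 at 0.40 and Myl3 at 0.30.

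In the calcium handling list, 0 of 16 measured members passed, 16 lay above 0 and the median was 0.22. At an unadjusted p under 0.05 there were 5 higher and 0 lower, and 2 members did not overlap, with Tbx5+/- higher. Over all genes 55.4% lay above 0, and 9.37% were higher and 4.71% lower at that p. The share without overlap and higher was 2.78%, and 0.0251% were called. Srl, a calcium binder of the sarcoplasmic reticulum, was 9.55, 9.78, 9.47, 9.67 and 9.62 in Tbx5+/- hearts, against 8.62 at the lowest, 9.08 at the median and 9.24 at the highest in Brg1+/- hearts. It did not overlap between the groups (log2 fold change 0.58, adjusted p = 0.159), and the fit on the 11 arrays alone called it (adjusted p = 0.0486). Jph2, which ties the cell membrane to the calcium store, stood at 0.55 (adjusted p = 0.185) and the calcium buffer gene Casq1 at 0.63 (adjusted p = 0.193). With the erythroid mean as a covariate the list median was 0.08, with Srl at 0.37, Jph2 at 0.30 and Casq1 at 0.57.

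Genes of energy supply also had mostly positive values. In the list of muscle-type respiration genes, 0 of 16 measured members passed, 15 lay above 0 and the median was 0.32. In the fatty acid list, 0 of 15 measured members passed, 15 lay above 0 and the median was 0.31. In the glycolysis and hypoxia list, 0 of 20 measured members passed, 19 lay above 0 and the median was 0.23. At an unadjusted p under 0.05 respiration had 9 higher and 0 lower, fatty acids 9 and 0, and glycolysis 9 and 1. Over all genes 55.4% lay above 0, 9.37% were higher and 4.71% lower at that p, and 0.0251% were called. Ckm, the muscle creatine kinase that buffers ATP, was 8.003, 8.10, 7.79, 7.94 and 7.58 in Tbx5+/- arrays, against 6.58 at the lowest, 6.95 at the median and 7.25 at the highest in Brg1+/- arrays. Its groups were separate, with a log2 fold change of 0.95 (SE 0.21, limma adjusted p = 0.11), and the fit on the 11 arrays alone called it (adjusted p = 0.00806). Pdk4, the kinase that turns fuel use from glucose to fat, was 7.45 to 7.85 in Tbx5+/- arrays and 6.595 to 7.39 in Brg1+/- arrays (log2 fold change 0.64, adjusted p = 0.145). The fatty acid oxidation genes Cpt2 and Acadl had log2 fold changes of 0.46 (adjusted p = 0.159) and 0.48 (adjusted p = 0.159). Pfkp, a phosphofructokinase of glycolysis, stood at 0.71 (adjusted p = 0.185) and the muscle oxidase subunit gene Cox6a2 at 0.50 (adjusted p = 0.185). With the erythroid mean as a covariate the medians were 0.22 for respiration, 0.23 for fatty acids and 0.14 for glycolysis. In that fit Ckm stood at 0.80, Pdk4 at 0.49, Cpt2 at 0.37, Acadl at 0.41, Pfkp at 0.50 and Cox6a2 at 0.27.

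**Figure D3:**
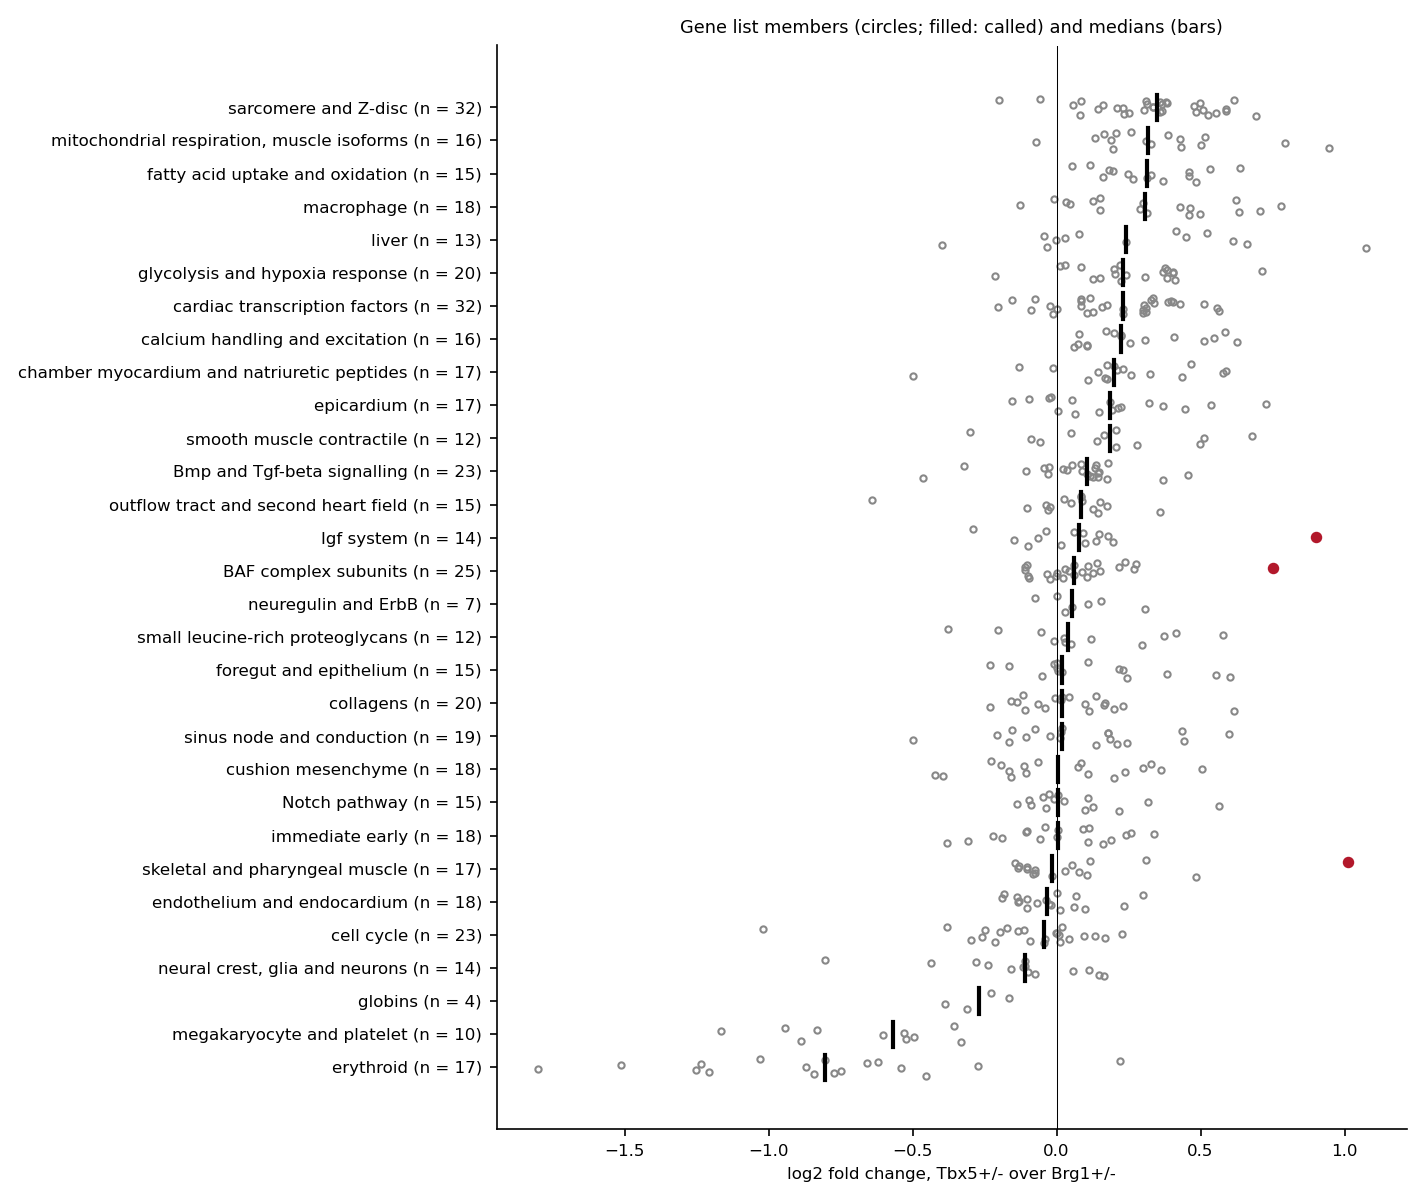
Log2 fold change of Tbx5+/- over Brg1+/- hearts for every measured member (circles) of 30 gene lists, with list medians (bars) and members past the test (filled). The sarcomere list is at the top with a median of 0.35 and the erythroid list at the bottom with -0.80.

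Red blood cell genes had mostly negative log2 fold changes, with wide spread within both groups. In the erythroid list, 0 of 17 measured members passed, 1 lay above 0 and the median was -0.80, with 0 higher and 9 lower at an unadjusted p under 0.05. Of all genes 9.37% were higher and 4.71% lower at that p. The list mean was 9.72, 8.98, 8.93, 8.24 and 8.66 in the Tbx5+/- arrays, against 8.64 to 10.47 in the Brg1+/- arrays, so the groups overlapped. Hemgn, a nuclear regulator of red cell formation, was 7.20 to 8.92 in Tbx5+/- arrays and 8.85 to 11.001 in Brg1+/- arrays (log2 fold change -1.80, SE 0.57, adjusted p = 0.185), and the fit on the 11 arrays alone called it (adjusted p = 0.0486). The red cell pyruvate kinase gene Pklr stood at -1.51 (adjusted p = 0.185) and the erythropoietin receptor gene Epor at -1.21 (adjusted p = 0.185). With the mean of their own list in the model, Hemgn was -0.66, Pklr -0.63 and Epor -0.39. The wild-type list means ran from 8.23 to 9.73.

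In the globin list, 0 of 4 measured members passed, 0 lay above 0 and the median was -0.27. Hbb-y, a beta-like globin of primitive red cells, was 14.09 to 14.26 in Tbx5+/- arrays and 14.33 to 14.39 in Brg1+/- arrays (log2 fold change -0.17, adjusted p = 0.296). Its embryonic partner Hba-x stood at -0.31 (adjusted p = 0.307) and Hbb-bh1 at -0.39 (adjusted p = 0.527). Adding the erythroid mean to the model left a list median of 0.003, and the values were -0.08 for Hbb-y, -0.05 for Hba-x and 0.09 for Hbb-bh1.

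In the list of megakaryocyte and platelet genes, 0 of 10 measured members passed, 0 lay above 0 and the median was -0.57, with 0 higher and 6 lower at an unadjusted p under 0.05. The shares over all genes were 9.37% higher and 4.71% lower. The list mean was 7.75, 7.55, 7.46, 7.18 and 6.93 in Tbx5+/- hearts, against 7.75 to 8.42 in Brg1+/- hearts. The highest Tbx5+/- mean, 7.752, and the lowest Brg1+/- mean, 7.753, were next to each other. Pf4, a chemokine stored in platelets, was 7.71, 7.53, 7.44, 7.07 and 6.47 in Tbx5+/- arrays, against 8.0 at the lowest, 8.41 at the median and 8.76 at the highest in Brg1+/- arrays. Its groups did not overlap (log2 fold change -1.16, SE 0.35, adjusted p = 0.176), and the fit on the 11 arrays alone called it (adjusted p = 0.0444). F2rl2, a thrombin-linked receptor gene, stood at -0.89 (adjusted p = 0.159) and Plek, a protein kinase C substrate of platelets, at -0.83 (adjusted p = 0.193), both also without overlap. In the list 4 members did not overlap, all lower in Tbx5+/- hearts, against 0.557% of all genes. In the model that holds the erythroid mean the list median was -0.17, and the values were -0.57 for Pf4, -0.49 for F2rl2 and -0.37 for Plek.

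In the macrophage list, 0 of 18 measured members passed, 16 lay above 0 and the median was 0.31, with 10 higher and 0 lower at an unadjusted p under 0.05. Of all genes 9.37% were higher and 4.71% lower at that p. Aif1, a cytoskeletal protein of macrophages, was 5.19, 5.29, 5.48, 5.37 and 4.86 in Tbx5+/- arrays, against 4.57 at the lowest, 4.78 at the median and 4.87 at the highest in Brg1+/- arrays. The log2 fold change was 0.50 (SE 0.11, limma adjusted p = 0.0987), with Tbx5+/- replicate 5 inside the Brg1+/- range. The complement genes C1qc and C1qb had log2 fold changes of 0.70 (adjusted p = 0.139) and 0.63 (adjusted p = 0.159). With the erythroid mean as a covariate the list median was 0.30.

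**Figure D4:**
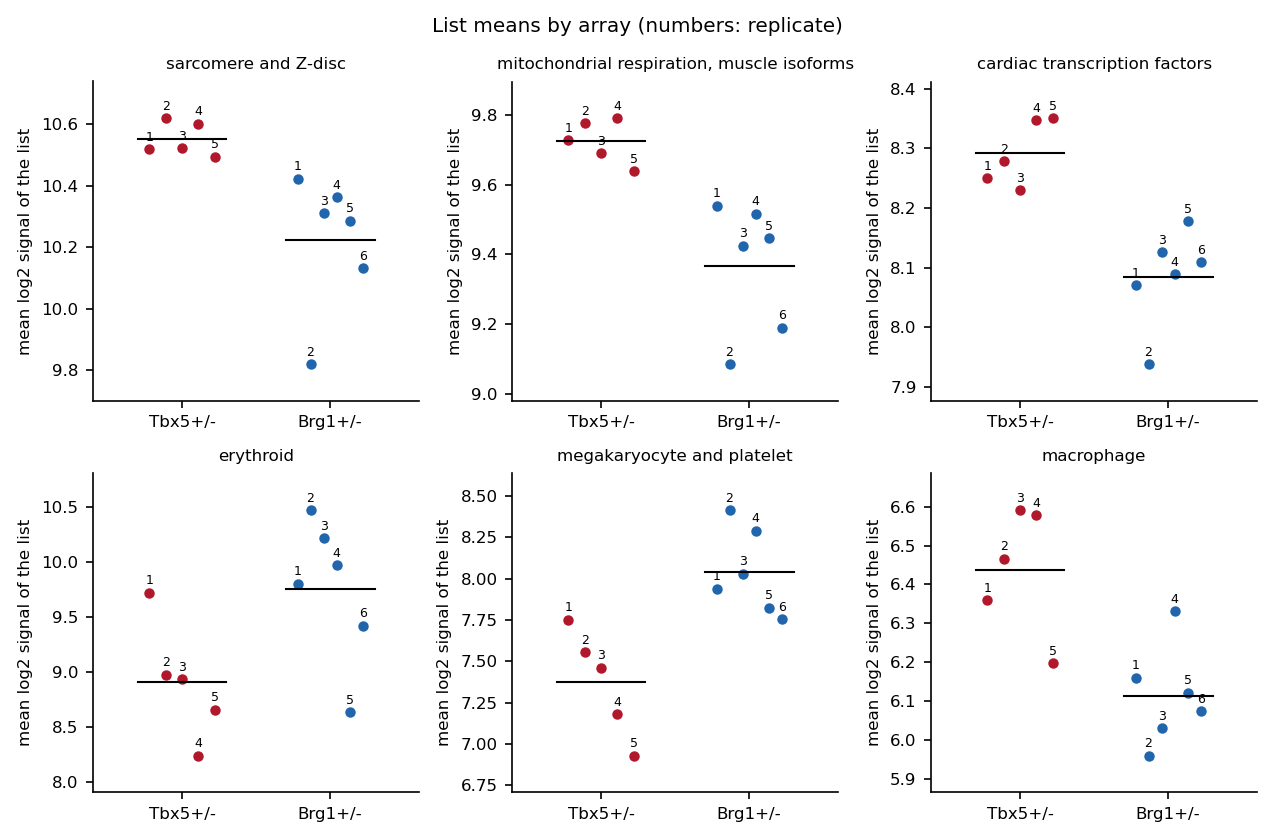
Mean log2 signal of 6 gene lists in each of the 11 arrays (points, numbered by replicate) with the mean of each genotype (line). Tbx5+/- points lie above all Brg1+/- points for the sarcomere, respiration and cardiac factor lists and overlap with them for the erythroid and macrophage lists, and Brg1+/- replicate 2 has the lowest sarcomere and the highest erythroid mean.

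The part of the red blood cell level in the muscle and energy values was not tested beyond the covariate fit. That fit called 3 genes: Smarca4 at 0.84 (adjusted p = 7.4e-05), Ddc at 1.17 (adjusted p = 0.00165) and Igfbp2 at 0.88 (adjusted p = 0.00165). In the 11 arrays alone, a fit chosen after the data were seen, the covariate left 0 genes by limma with 1958 at an unadjusted p under 0.05. There Ddc stood at 1.26 (adjusted p = 0.0865), Smarca4 at 0.72 (adjusted p = 0.0953) and Igfbp2 at 0.83 (adjusted p = 0.17). List medians in that fit were 0.27 for the sarcomere, 0.18 for calcium handling, 0.16 for cardiac factors and 0.14 for chamber myocardium. They were 0.26 for respiration, 0.28 for fatty acids and 0.24 for glycolysis. Each of these medians lay above its value in the covariate fit on all arrays of the series. All but glycolysis, at 0.23 without the covariate, lay below their values without it.

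Chamber genes had mostly positive log2 fold changes, and conduction genes were mixed. In the chamber myocardium list, 0 of 17 measured members passed, 14 lay above 0 and the median was 0.20, and in the sinus node and conduction list, 0 of 19 measured members passed, 12 lay above 0 and the median was 0.02. At an unadjusted p under 0.05 the chamber list had 6 higher and 1 lower (9.37% and 4.71% over all genes). Its 5 members without overlap were all higher in Tbx5+/- hearts (2.78% over all genes). Beside the erythroid mean as a covariate, the median of the chamber list was 0.06. Lrrc10, a cardiac protein of the Z-disc region, was 7.61 to 8.04 in Tbx5+/- arrays and 6.90 to 7.58 in Brg1+/- arrays (log2 fold change 0.58, adjusted p = 0.179). The natriuretic peptide genes Nppa, a known target of Tbx5, and Nppb stood at -0.01 (adjusted p = 0.985) and -0.13 (adjusted p = 0.78), and were chosen after their values were seen. Gja5, an atrial and conduction connexin and also a known Tbx5 target, was 9.07, 9.09, 9.74, 8.95 and 8.998 in Tbx5+/- arrays, against 9.30 at the lowest, 9.55 at the median and 10.09 at the highest in Brg1+/- arrays. Tbx5+/- replicate 3 was the 1 array of its group within the Brg1+/- range, and the log2 fold change was -0.50 (SE 0.17, limma adjusted p = 0.193). Gja5 was -0.66 with the erythroid mean in the model. The potassium channel subunit gene Kcne1 stood at 0.60 (adjusted p = 0.17) and the matrix protein gene Smoc2 at 0.44 (adjusted p = 0.225).

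Among signalling lists, 0 of 23 measured members passed, 17 lay above 0 and the median was 0.11 for Bmp and Tgf-beta signalling. In it the ligand gene Bmp7 was 8.65 to 8.76 in Tbx5+/- arrays and 7.97 to 8.48 in Brg1+/- arrays (log2 fold change 0.46, adjusted p = 0.159), the pseudoreceptor gene Bambi stood at 0.37 (adjusted p = 0.182) and Tgfb1 at -0.32 (adjusted p = 0.277). The list median turned to -0.02 with the erythroid mean in the model, with Bambi at 0.24 and Tgfb1 at -0.19. In the Notch list, 0 of 15 measured members passed, 8 lay above 0 and the median was 0.00, with the ligand genes Jag2 at 0.32 (adjusted p = 0.185) and Dll1 at 0.22 (adjusted p = 0.407). In the neuregulin and ErbB list, 0 of 7 measured members passed, 6 lay above 0 and the median was 0.05, with the receptor gene Erbb2 at 0.31 (adjusted p = 0.237), or 0.19 beside the erythroid mean. In the outflow tract list, 0 of 15 measured members passed, 10 lay above 0 and the median was 0.08, with Rgs5, a G protein regulator of pericytes, at -0.64 (adjusted p = 0.355).

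Among wall layer lists, 0 of 17 measured members passed, 13 lay above 0 and the median was 0.19 for the epicardium. The epicardium list median was 0.064 without Tbx5+/- replicate 3 and 0.081 without Brg1+/- replicate 6. The mesothelial genes Muc16 and Msln stood at 0.73 (adjusted p = 0.153) and 0.54 (adjusted p = 0.181), and the keratin gene Krt18 was 8.52 to 8.86 in Tbx5+/- arrays and 8.02 to 8.47 in Brg1+/- arrays (log2 fold change 0.45, adjusted p = 0.159). For smooth muscle, 0 of 12 measured members passed, 9 lay above 0 and the median was 0.18, with Pcp4l1 at 0.68 (adjusted p = 0.139) and the calponin gene Cnn1 at 0.50 (adjusted p = 0.259), and with the erythroid mean in the model the median was 0.05. For the endothelium, 0 of 18 measured members passed, 7 lay above 0 and the median was -0.03, with the endothelial factor gene Sox18 at 0.30 (adjusted p = 0.241) and the adhesion gene Pecam1 at -0.19 (adjusted p = 0.664). The endothelium list median was -0.22 with the erythroid mean in the model. For cushion mesenchyme, 0 of 18 measured members passed, 9 lay above 0 and the median was 0.01, with the homeobox gene Prrx2 at 0.51 (adjusted p = 0.203) and the T-box repressor gene Tbx2 at 0.33 (adjusted p = 0.228). With the erythroid mean in the model the cushion list median was -0.16 and Prrx2 was 0.26. For collagens, 0 of 20 measured members passed, 12 lay above 0 and the median was 0.02, with Col12a1 at 0.62 (adjusted p = 0.38). For small leucine-rich proteoglycans, 0 of 12 measured members passed, 8 lay above 0 and the median was 0.04, with Kera at 0.37 (adjusted p = 0.159) and Prelp at -0.38 (adjusted p = 0.206).

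In the cell cycle list, 0 of 23 measured members passed, 9 lay above 0 and the median was -0.04. Mki67, the Ki-67 proliferation antigen, was 10.72, 10.22, 10.41, 9.84 and 10.43 in Tbx5+/- arrays, against 10.62 at the lowest, 11.35 at the median and 12.02 at the highest in Brg1+/- arrays. Of the Tbx5+/- arrays, replicate 1 alone reached into the Brg1+/- range, and the log2 fold change was -1.02 (SE 0.32, limma adjusted p = 0.185). The highest Mki67 signal was in Brg1+/- replicate 2, the array with the highest erythroid mean, and with that mean in the model Mki67 was -0.37. The replication enzyme gene Top2a stood at -0.38 (adjusted p = 0.208) and the cyclin gene Ccna2 at -0.30 (adjusted p = 0.271), and Top2a was -0.21 with the erythroid mean in the model. In the list of neural crest, glia and neuron genes, 0 of 14 measured members passed, 4 lay above 0 and the median was -0.11, with the neuronal tubulin gene Tubb3 at -0.81 (adjusted p = 0.159). Without Brg1+/- replicate 3, which had the highest mean of this list, the median turned to 0.007. In the immediate early list, 0 of 18 measured members passed, 10 lay above 0 and the median was 0.00, with the antiproliferative gene Btg2 at -0.38 (adjusted p = 0.302), or -0.09 beside the erythroid mean.

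The lists of neighbouring organ markers held no called gene, and 0.0251% of all genes were called. At an unadjusted p under 0.05 the liver list had 1 higher and 0 lower, and the foregut list 4 higher and 0 lower. Over all genes the shares at that p were 9.37% higher and 4.71% lower. In the liver list, 0 of 13 measured members passed, 9 lay above 0 and the median was 0.24, with list means of 5.54 to 6.67 in Tbx5+/- arrays and 5.46 to 6.81 in Brg1+/- arrays, and the transferrin gene Trf stood at 0.52 (adjusted p = 0.289). The liver list median was 0.53 without Tbx5+/- replicate 2, 0.12 without Tbx5+/- replicate 4, 0.14 without Tbx5+/- replicate 5, 0.14 without Brg1+/- replicate 2 and 0.43 without Brg1+/- replicate 6. It was 0.39 with the erythroid mean in the model. In the foregut and epithelium list, 0 of 15 measured members passed, 11 lay above 0 and the median was 0.02, with the tight junction gene Cldn6 at 0.60 (adjusted p = 0.193) and the adhesion gene Epcam at 0.55 (adjusted p = 0.255).

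Of the genes below 0, the 5 named ones with the smallest p were Tchhl1, Stk-ps2, Flvcr1, Lpcat1 and Ankrd33b. Tchhl1 was 5.70, 5.72, 5.36, 5.45 and 5.65 in Tbx5+/- arrays, against 5.87 at the lowest, 6.04 at the median and 6.11 at the highest in Brg1+/- arrays. It did not overlap between the groups (log2 fold change -0.45, SE 0.10, limma adjusted p = 0.11). Lpcat1, which remodels phospholipids, was 8.05 to 8.38 in Tbx5+/- arrays and 8.497 to 9.71 in Brg1+/- arrays (log2 fold change -0.88, adjusted p = 0.139). Flvcr1, a heme exporter, was 7.16 to 7.88 in Tbx5+/- arrays and 7.75 to 8.89 in Brg1+/- arrays (log2 fold change -0.87, adjusted p = 0.139). Ankrd33b stood at -0.50 (adjusted p = 0.139) and Stk-ps2 at -0.62 (adjusted p = 0.139). Once the erythroid mean was a covariate, Flvcr1 was -0.45 and Lpcat1 -0.49.

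The called genes lie on separate chromosomes, namely 11 for Ddc, 1 for Igfbp2, 7 for Tnni2, 9 for Smarca4 and 5 for Tbx5. Of the 30 measured genes within 3 places of one of them, 0 passed by limma, and the lowest adjusted p was that of Lsp1 beside Tnni2, at 0.39 (adjusted p = 0.159). Beside Ddc, the growth factor adaptor gene Grb10 stood at 0.26 (adjusted p = 0.206) and Fignl1, on its other side, at -0.57 (adjusted p = 0.302). Beside Tbx5, its paralog Tbx3 stood at -0.07 (adjusted p = 0.833). Among the 50 measured genes around Smarca4, 25 to each side, 0 passed and 8 had an unadjusted p under 0.05, of which 4 were higher and 4 lower. Around Tbx5 the counts were 0 and 8, of which 6 were higher and 2 lower. Over all genes 9.37% were higher and 4.71% lower at an unadjusted p under 0.05. On the whole of chromosomes 9 and 5 the shares with such a p were 14.7% and 12.6%. Lsp1, Grb10, Fignl1 and Tbx3 were singled out after their values were seen.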

How the data were processed

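Total RNA of E11.5 mouse hearts was measured on Affymetrix arrays. Per the submitters' processing notes, RMA in Affymetrix Power Tools (versions not given in the sources used here) made the deposited log2 values, used here unchanged. Of 28815 probe sets, 21780 have a single platform symbol. Taking the probe set with the highest mean for each gene left 19935 genes, and 19853 of them matched RefSeq (GRCm38.p6) by identifier for current names.

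The model in limma (version 3.58.1, R 4.3.3) had 1 mean for each genotype across all 27 arrays, with 21 residual and 6.71 prior degrees of freedom. The contrast was Tbx5+/- minus Brg1+/-, two-sided, with Benjamini-Hochberg adjustment over all genes, and genes with an adjusted p under 0.05 are called. All adjusted p are from limma. The procedure was tested on simulated data. The comparison and the gene lists were chosen with earlier results of these data known, and lists are described by counts and medians without a set test.

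Named are the targeted genes, called genes (up to 15 in a direction), the 5 genes with the smallest p in a direction with fewer than 5 calls, and from each list up to 4 called members or, with none called, the 3 with the smallest p. Clone, predicted and chemosensory receptor names were counted, not named, and some genes the rule allows are not printed. Alternatives changed the normalization, the filter, the variance prior, the arrays in the fit, the probe set choice, array weights, a replicate block and covariates. Plots used matplotlib (3.10.9, Python 3.11.15). The number of arrays limits the precision.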

Additional observations from a re-analysis of the deposited data

Results flagged for a closer look

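Of 240 groups of values examined (named genes and list means within a genotype), 12 held an array far from the others, its gap to the nearest one taking more of the range than Dixon's 95% critical value. That is 5% of the groups, the nominal rate of such a test. The groups share arrays, and some share genes, so this rate cannot tell which values arose by chance. In Tbx5+/- replicate 3 the signal was 8.51 (next 8.80) for Tbx5, 9.74 (next 9.09) for Gja5, 8.25 (next 8.58) for Pecam1, 6.89 (next 7.20) for Hbegf and 8.04 (next 8.40) for Tgfb1. In Tbx5+/- replicate 5 it was 7.04 (next 6.80) for Plxna2. In Brg1+/- replicate 2 the chamber myocardium list mean was 9.68 (next 10.01) and Srl was 8.62 (next 9.03). Col12a1 was 5.74 (next 6.30) in Brg1+/- replicate 1. The globin list mean was 11.09 (next 11.51) in Brg1+/- replicate 5, the neural crest, glia and neuron list mean was 6.71 (next 6.29) in replicate 3 and the liver list mean was 6.81 (next 5.92) in replicate 6.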

How the results depend on the processing

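The 5 calls became 7 after a further quantile normalization, 12 with array medians equalised, 11 after dropping the dimmest genes (13290 tested), 9 with a trended and robust variance prior, 30 with the 11 arrays alone, 121 without the pair of arrays at odds with their labels, 926 with array weights and 3 with the erythroid mean as a covariate. In settings chosen after the data were seen they became 515 with array weights in the 11 arrays alone and 0 with the erythroid covariate there. Leaving out 1 array gave 3 to 11 calls: 3 without Tbx5+/- replicate 2 or 4, 11 without Brg1+/- replicate 1, and 8 without Brg1+/- replicate 3 or 5. The 5 called genes were above 0 in each of 24 alternatives, and Ddc, Igfbp2 and Smarca4 stayed called whichever array was left out. The causes were not tested.

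Replicate numbers are shared between the groups, but the labels tie them to no litter or day. Same-numbered arrays correlated between -0.06 and 0.30 in their deviations from the group means, and 2 of 5 matched their own number best. With the replicate number as a block 5 genes were called, 4 of them the same, with Tnni2 at an adjusted p of 0.0539.

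Of 2153 values of named genes under the alternatives, 7 changed sign. With the erythroid covariate these were Hbb-bh1 (0.087), Egfl7 (-0.0288) and Erbb4 (-0.0573), and with it in the 11 arrays alone Hbb-bh1 (0.0142), Egfl7 (-0.0852), Erbb4 (-0.0752) and Plxna2 (-0.022). List medians turned sign with the erythroid covariate for the erythroid, globin, Bmp, Igf, Notch, collagen, cushion, neuregulin, outflow, sinus node and immediate early lists. The covariate is the mean of the erythroid list, so a median near 0 for that list (0.0111) follows from the model. Leaving out some single array turned the Notch, collagen, cushion, endothelium, immediate early, sinus node, skeletal and neural lists. After further quantile normalization the medians were 0.0423 for skeletal, -0.0001 for collagens and -0.0151 for cushion. The skeletal median was 0.011 with array medians equalised, and the cell cycle median 0.0134 with the covariate in the 11 arrays alone.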
